A study of Homo sapiens with 13 samples.

Results

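The values described here are those of 10 genes, most of them known for their expression in liver, among 21779 genes named on the array. Every probe whose deposited gene symbol was MAT1A, HULC, FABP6, FGG, FGA, FGB, ALB, AFP, TTR or SERPINA1 was taken, which gave 13 probes. MAT1A, HULC, FABP6 and FGG were chosen because they had been seen among the largest rises with UNC0638 in these arrays, so their UNC0638 values are given as a description with no test. FGA, FGB, ALB, AFP, TTR and SERPINA1 were added for comparison and were not chosen on their own values.

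RNA came from HEK293T, 1 human embryonic kidney line with the SV40 large T antigen, grown in medium with serum. In each 2-colour array a treated RNA was set against a control RNA. UNC0638, which inhibits the histone methyltransferases G9a and GLP, was given at 1 µM for 48 h against DMSO (5 biological replicates on 7 arrays, since replicates 1 and 2 were also run with the dyes swapped). siRNA against WIZ, a zinc finger partner of both enzymes, was compared with control siRNA after 72 h (2 replicates, each in both dye orientations, on 4 arrays), and siRNA against G9a in the same way (2 replicates on 2 arrays that all had the treated RNA in Cy5). All siRNAs came from Dharmacon, delivered with DharmaFECT 4, and left 23.1% of WIZ and 31.6% of EHMT2 (G9a) RNA, whereas UNC0638 acts on the protein and EHMT2 RNA lay at 88.6% of control. The arrays hold bulk RNA, in which more cells with a transcript and more of it per cell cannot be told apart.

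G9a and GLP place mono- and dimethyl groups on lysine 9 of histone H3, a mark found over silent genes, and WIZ helps to hold the 2 enzymes on chromatin. Hepatocytes are known for secreting most plasma proteins, among them albumin (ALB), transthyretin (TTR), alpha-1-antitrypsin (SERPINA1) and the 3 fibrinogen chains (FGA, FGB, FGG), while alpha-fetoprotein (AFP) is the fetal counterpart of albumin. MAT1A is the liver form of the enzyme that makes S-adenosylmethionine, the donor for methyltransferases, and other tissues use MAT2A. HULC is a long noncoding RNA first described in liver cancer, and FABP6 is a bile acid carrier known chiefly from the ileum.

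RefSeq promoter windows (GRCh38.p14) were at hand for 8 of the 10 genes, all but HULC and TTR. Those of 3 chosen genes (MAT1A, FABP6, FGG) are shown beside those of 3 comparison genes (FGA, FGB, ALB), since FGG, FGA and FGB share a locus. The FGA and FGB probes lay near or below background, which limits how their ratios compare with that of FGG. Each is the 250 bases before the start site, with capitals at the HNF1 half-site GTTAAT (reverse complement ATTAAC) and at the interleukin 6 response element core CTGGGAA (reverse complement TTCCCAG). HNF1 is a liver and kidney transcription factor.
MAT1A (chr10:80289659-80289908, minus strand): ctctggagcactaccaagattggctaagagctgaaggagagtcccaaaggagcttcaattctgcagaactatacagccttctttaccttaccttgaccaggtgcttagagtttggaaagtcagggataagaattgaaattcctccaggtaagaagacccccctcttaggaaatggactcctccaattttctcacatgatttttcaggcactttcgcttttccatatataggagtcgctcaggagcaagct
FABP6 (chr5:160229256-160229505, plus strand): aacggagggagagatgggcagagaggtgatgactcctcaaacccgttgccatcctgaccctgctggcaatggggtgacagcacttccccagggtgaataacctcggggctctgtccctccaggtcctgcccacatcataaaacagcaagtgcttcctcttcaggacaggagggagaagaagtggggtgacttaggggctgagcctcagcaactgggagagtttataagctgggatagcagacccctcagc
FGG (chr4:154612657-154612906, minus strand): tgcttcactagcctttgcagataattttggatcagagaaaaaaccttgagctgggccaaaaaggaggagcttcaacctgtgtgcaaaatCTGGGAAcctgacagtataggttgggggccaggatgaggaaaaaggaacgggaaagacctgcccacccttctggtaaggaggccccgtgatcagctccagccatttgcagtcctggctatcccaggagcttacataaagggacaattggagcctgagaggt
FGA (chr4:154590743-154590992, minus strand): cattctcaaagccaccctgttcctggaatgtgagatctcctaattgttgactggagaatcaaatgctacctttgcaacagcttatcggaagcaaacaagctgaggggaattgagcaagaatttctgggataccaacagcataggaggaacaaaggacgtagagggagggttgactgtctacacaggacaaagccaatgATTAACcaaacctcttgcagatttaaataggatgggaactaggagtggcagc
FGB (chr4:154562730-154562979, plus strand): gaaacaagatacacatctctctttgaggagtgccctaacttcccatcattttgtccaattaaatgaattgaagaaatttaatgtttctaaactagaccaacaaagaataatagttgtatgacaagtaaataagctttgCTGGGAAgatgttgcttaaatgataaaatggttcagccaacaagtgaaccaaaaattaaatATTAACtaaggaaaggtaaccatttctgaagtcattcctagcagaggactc
ALB (chr4:73404037-73404286, plus strand): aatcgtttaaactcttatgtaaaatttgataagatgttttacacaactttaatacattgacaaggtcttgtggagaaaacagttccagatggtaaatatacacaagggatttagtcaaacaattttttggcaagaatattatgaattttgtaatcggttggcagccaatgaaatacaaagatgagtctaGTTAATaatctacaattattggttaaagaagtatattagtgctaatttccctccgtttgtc

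The HNF1 half-site was in none of the windows of MAT1A, FABP6 and FGG. It was in those of FGA (starting 52 bases before the start site), FGB (51 bases), ALB (61 bases) and AFP (132 bases) and in 1 of 2 windows of SERPINA1 (76 bases). Of all 35116 promoter windows, 6.23% hold it on either strand. The interleukin 6 core was in the windows of FGG (161 bases before the start site) and FGB (112 bases), against 9.15% of all windows, and no match of the 2 motifs overlapped another. These are letter matches, not measured sites. In CG dinucleotides the 6 printed windows held 2 each (MAT1A, FGG and FGA), 3 each (FABP6 and ALB) and 0 (FGB). The median over all windows was 11, but 34.3% of all windows hold at most 4, so such low counts are common. Of windows not printed, that of AFP held 1 and those of SERPINA1 held 6 and 11. GC content was 44.8% in MAT1A, 56.8% in FABP6, 50.8% in FGG, 45.2% in FGA, 33.2% in FGB and 30% in ALB, against a median of 58%.

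Several features of the arrays bear on every value below. The median background was 28 to 30 in Cy3 and 45 to 68 in Cy5, and a probe is called well above background where its signal passed the local background by over 2.6 background SDs. The lowest Cy3 background SD was 4 or 5 on the arrays of WIZ siRNA and of UNC0638 replicates 1 and 2 (set 1). It was 11, with a lower median signal, on those of G9a siRNA and of UNC0638 replicates 3 to 5 (set 2). Each siRNA was thus run in 1 set, and its effect and that of the set cannot be told apart. In set 1, 77.6% to 92.7% of probes were well above background in Cy3 channels and 58.5% to 64.2% in Cy5 channels. Whether a dim probe passes there thus depends on the dye as well as on the RNA. Over all features the ratios of UNC0638 replicate 3 had correlations of 0.876 and 0.843 with those of G9a siRNA, of 0.663 with UNC0638 replicate 4 and of 0.135 to 0.177 with replicates 1, 2 and 5. For this, results are also given without it. Replicate 4 correlated with both G9a siRNA replicates at 0.50. EHMT2 RNA in UNC0638 replicates 1 to 5 was 109%, 88.2%, 77.8%, 102% and 71.9% of control. On WIZ siRNA arrays, opposite dye orientations of 1 replicate, both turned to treated over control, correlated at -0.48 and -0.36. WIZ itself was lower on all 4 of them (log2 ratios -2.33, -2.01, -2.20 and -1.93). On UNC0638 arrays the orientations of replicates 1 and 2, turned likewise, correlated at 0.037 and 0.038. UNC0638 replicates 3 to 5 and G9a siRNA had no swapped arrays. Markers of the HEK293 line, 10 of 10 genes, were well above background on all 13 control channels. With UNC0638 1 of the 10, LHX1, passed and fell (-0.53, adjusted p = 0.0236 in limma). Of 12 hepatocyte markers, 5 were well above background on at least 7 of 13 control channels, with ALB on 4 and TTR on 3. Of those, ASGR1 and APOA1 had median control signals of 1787 and 353, and ALB and TTR of 71 and 77.5. The summed hepatocyte marker signal above background was 1993 to 2826 with UNC0638 and 2143 to 2465 with DMSO. In the intestinal list CDX2, a regulator, had a median control signal of 20222 and the other markers of at most 88. CDX2 lay at -0.21 (adjusted p = 0.0282 in limma), and the list summed to 9852 to 28246 with UNC0638 and 11156 to 22514 with DMSO. Of 6 intestinal markers 2 were well above background on at least 7 control channels. Of 6 blood markers 5 were so, with sums of 1031 to 3318 and 536.7 to 2313. With UNC0638 2 of the 6 rose, LCP1 (0.73) and CD33 (1.04), and the rest, with CD34 at -0.044, did not pass. Of 6 fibroblast markers 3 were well above background in this way, with sums of 1131 to 4042 and 955.6 to 3457. With UNC0638 2 of the 6 rose, COL3A1 (0.25) and LUM (0.39), and the rest, with PDGFRA at -0.19, did not pass. The labels name HEK293T cells alone, and whether any other cells had a part in the results was not tested.

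MAT1A RNA was higher with UNC0638 in all 5 replicates. Its signal lay between 603 and 3962 in treated RNA (median 1401) and between 113.5 and 291.5 in control RNA (median 199.5) and every channel passed the background threshold. The log2 ratios of treated over control were 2.91, 3.21, 1.69, 1.65 and 1.85 in replicates 1 to 5, a mean of 2.26 ± 0.74 (SD, n = 5) or 4.79-fold, rank 2 of 28913 tested features. Replicates 1 and 2, of set 1, lay above replicates 3 to 5, of set 2, with no overlap. Replicates 1 and 2 alone gave 3.06 and replicates 3 to 5 alone 1.73. The part of the array set in this was not tested. Without replicate 3 the mean was 2.41.

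HULC behaved in the same direction. Treated signals were 354 to 1532 (median 547) and control signals 88 to 187 (median 115), the control past the background threshold on 4 of 7 arrays. The log2 ratios were 2.02, 2.34, 1.28, 1.46 and 2.26, a mean of 1.87 ± 0.48 (SD, n = 5) or 3.66-fold, rank 3 among all features, and 2.02 without replicate 3. Replicate 5, of set 2, lay among the replicates of set 1. HULC is measured by 1 probe in 1 spot. The mean was 2.98 with the authors' series table.

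FABP6 was well above background in both RNAs on all 7 UNC0638 arrays, with treated signals of 522 to 1622 (median 644.5) and control signals of 146.5 to 347.5 (median 233). Its log2 ratios were 1.18, 1.89, 1.16, 1.18 and 1.66, a mean of 1.41 ± 0.34 (SD, n = 5) or 2.66-fold, rank 10 among all features, and 1.48 without replicate 3. Replicates 1 and 2, of set 1, gave a mean of 1.54 and replicates 3 to 5, of set 2, of 1.33, and the part of the array set in this was not tested.

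FGG, the fibrinogen gamma chain, was higher in all 5 replicates. Its log2 ratios were 1.22, 1.44, 1.28, 1.25 and 1.48, a mean of 1.33 ± 0.11 (SD, n = 5), and 1.35 without replicate 3. The treated channel passed the background threshold on all 7 arrays (signals 199 to 369) and the control channel on 2 (44 to 157). Those 2 were the set 1 arrays with the control RNA in Cy3. With the control so near background the size of the ratio and its spread depend on how background is treated, and no fold or rank is given. It was 1.72 with a normexp offset of 16 in place of 50 and 2.55 with the authors' log2 ratio.

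**Figure D1:**
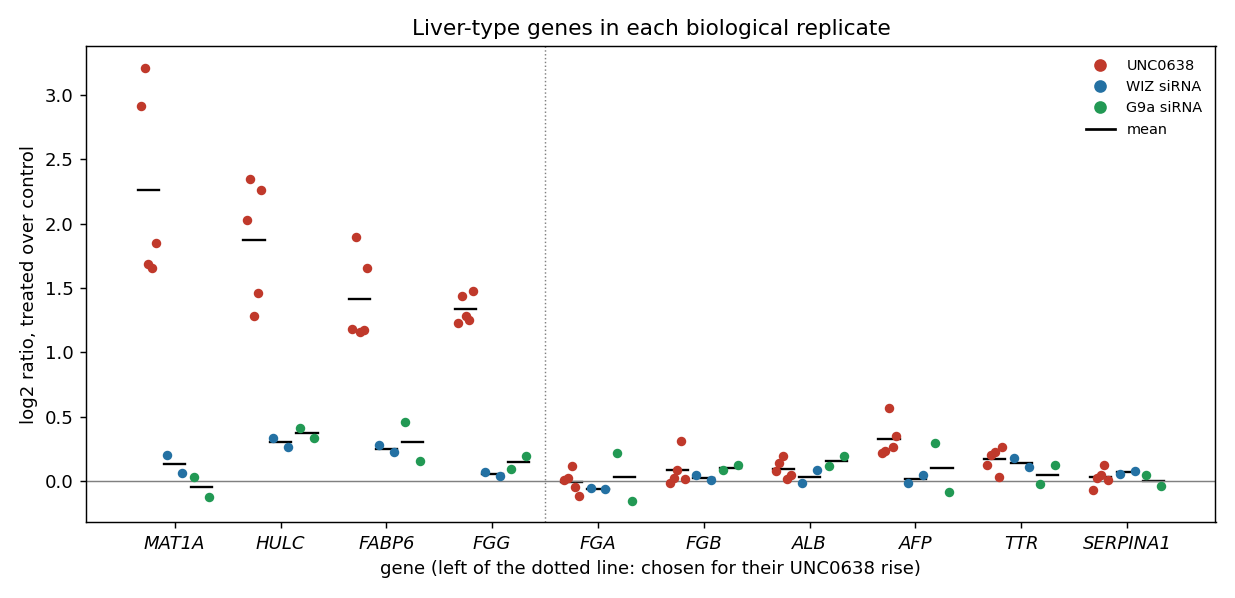
Log2 ratio of treated over control RNA (vertical axis) for the brightest tested probe of each gene, or the only probe of FGB and AFP, which were not tested. Each point is 1 biological replicate (UNC0638 n = 5, each siRNA n = 2) and each bar a mean. MAT1A, HULC, FABP6 and FGG lie at 1.16 to 3.21 with UNC0638 and at -0.12 to 0.46 with either siRNA, and the 6 comparison genes lie at -0.15 to 0.56 throughout.

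FGA, the fibrinogen alpha chain, is encoded next to FGG and did not pass the test. Its tested probe gave log2 ratios of 0.0096, 0.020, 0.11, -0.049 and -0.12 with UNC0638, a mean of -0.0050 (95% interval -0.14 to 0.13, adjusted p = 0.972 in limma). The probe lies near background, with each RNA past the threshold on 2 of 7 arrays, those of set 1 where it was in Cy3. A second FGA probe gave -0.013 ± 0.059 and the third 0.13 ± 0.12 (SD, n = 5). FGB, the beta chain, has 1 probe, which was below the background threshold in both RNAs on all 13 arrays, so FGB was not tested. Its UNC0638 ratios changed sign with the dye, at -0.35 and -0.29 where Cy3 held the treated RNA and 0.31 and 0.34 where Cy5 did, in the same 2 replicates.

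Albumin, transthyretin and alpha-1-antitrypsin did not pass the test with UNC0638. ALB lay at 0.080, 0.14, 0.19, 0.017 and 0.042, a mean of 0.095 (95% interval -0.0076 to 0.20, adjusted p = 0.270). TTR lay at 0.12, 0.20, 0.23, 0.029 and 0.26, above 0 in 5 of 5 replicates, with a mean of 0.17 (0.056 to 0.28, adjusted p = 0.109). Treated TTR was not well above background on any of the 7 arrays and control TTR on 2, and no bound could be given. Those 2 were the set 1 arrays with the control RNA in Cy3. SERPINA1 lay at -0.072, 0.024, 0.046, 0.13 and 0.010, a mean of 0.027 (-0.073 to 0.13, adjusted p = 0.769), and its second probe at -0.064 ± 0.11 (SD, n = 5). In all, 0 of the 4 comparison genes tested passed in limma, 1 (TTR) at an unadjusted p under 0.05, where 3.65% of all 28913 features passed.

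AFP failed the filter on dim probes and was not tested, but its ratios lay on 1 side. They were 0.22, 0.23, 0.56, 0.26 and 0.35 in the 5 UNC0638 replicates, a mean of 0.33 ± 0.14 (SD, n = 5), and above 0 on 7 of 7 arrays. The treated channel passed the background threshold on 3 of 7 arrays and the control channel on 1. Both G9a siRNA replicates, at 0.29 and -0.087, fell on either side of 0.

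**Figure D2:**
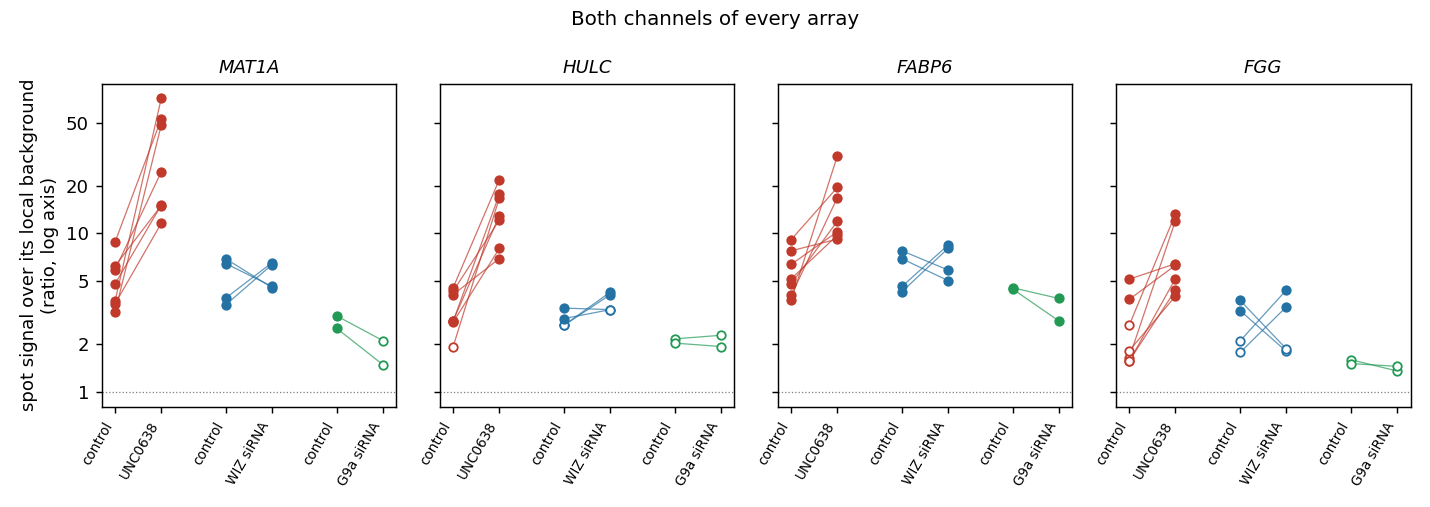
Spot signal divided by its local background (vertical log axis) for MAT1A, HULC, FABP6 and FGG in the control and treated channel of every array, joined by a line. Filled points were well above background and open points were not. FGG in control RNA is filled on 2 of 7 UNC0638 arrays, and both RNAs of FGG and of HULC are open on the 2 G9a siRNA arrays.

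With WIZ siRNA no member passed. Of 8 tested, 0 passed in limma and 0 had an unadjusted p under 0.05, beside 0.616% of all features passing, and the median of the 8 was 0.099 against 0.012 for all features. MAT1A lay at 0.20 and 0.059 in the 2 replicates, a mean of 0.13 (95% interval -0.66 to 0.92, adjusted p = 1.00). FABP6 lay at 0.28 and 0.22, a mean of 0.25 (-0.15 to 0.65, adjusted p = 0.925). FGG lay at 0.071 and 0.039, a mean of 0.055 (-0.13 to 0.24, adjusted p = 1.00).

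HULC lay at 0.34 and 0.27 with WIZ siRNA, a mean of 0.30 (-0.22 to 0.82, adjusted p = 0.965), and this hid a split by dye. It was -0.029 and -0.052 where Cy3 held the treated RNA, and 0.70 and 0.58 where Cy5 did. FGG was split the other way, at 0.25 and 0.20 for Cy3 and -0.11 and -0.12 for Cy5. MAT1A (0.18 and 0.048 against 0.23 and 0.069) and FABP6 (0.26 and 0.23 against 0.29 and 0.21) gave like values in both. TTR lay at 0.18 and 0.11 (adjusted p = 0.778), and the remaining tested members had means between -0.061 (FGA) and 0.066 (SERPINA1).

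**Figure D3:**
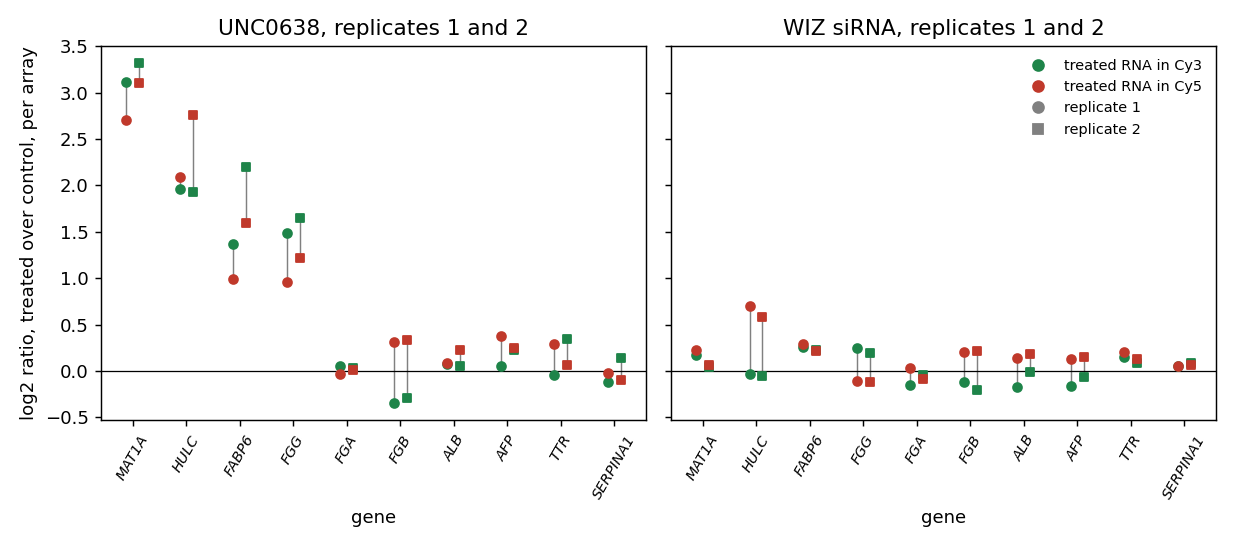
Log2 ratio of treated over control RNA on single arrays (vertical axis) for the dye-swapped replicates of UNC0638 and WIZ siRNA, with the treated RNA in Cy3 (green) or Cy5 (red) and a line joining arrays of the same RNAs. FGB changes sign with the dye in both treatments, HULC and FGG split by dye with WIZ siRNA, and MAT1A lies at 2.70 to 3.32 in both orientations with UNC0638.

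G9a siRNA gave the same count. Of the 8 tested members, 0 passed in limma and 0 had an unadjusted p under 0.05, although 33.2% of all features passed, and the median of the 8 was 0.096 against -0.0083 for all features. MAT1A lay at 0.030 and -0.12, a mean of -0.046 (95% interval -0.83 to 0.74, adjusted p = 0.937). The control channel passed the background threshold on 2 of 2 arrays and the treated channel on 0. The sign was not fixed, since the mean was 0.023 with the dye effect subtracted, and no bound is given. FABP6, well above background in both RNAs, lay at 0.46 and 0.15, a mean of 0.30 (-0.093 to 0.70, adjusted p = 0.222). HULC lay at 0.41 and 0.33 (mean 0.37, adjusted p = 0.255) and FGG at 0.091 and 0.20 (mean 0.14, adjusted p = 0.215), both below the background threshold in both RNAs. ALB had the lowest adjusted p, 0.129, at 0.12 and 0.19. The share of features passing rests on both replicates: without replicate 2 it was 0 (7222 at an unadjusted p under 0.05), and without replicate 1 it was 6055.

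The fit pools the spread of all 9 replicates, so the wide scatter of MAT1A, HULC and FABP6 under UNC0638 widens their siRNA intervals. Fitted on each treatment's own 2 replicates, HULC and FABP6 passed under both siRNAs (adjusted p = 0.00336 and 0.00634 with WIZ siRNA, 0.0129 and 0.0481 with G9a siRNA), in a fit that also called 6842 features with WIZ siRNA. Dye orientations were averaged first, so the adjusted p of HULC with WIZ siRNA measures none of its split by dye. The authors' log2 ratio called 33.6% of all features with G9a siRNA, the fit on its own replicates 37.4%, the one with the dye effect of swapped arrays subtracted 27.1% and the one with a GC trend removed 45.8%. With the authors' log2 ratio HULC (0.96, adjusted p = 0.0332) and ALB (0.81, adjusted p = 0.0149) passed with G9a siRNA. With the dye effect subtracted FGG passed there (0.35, adjusted p = 0.0295) and HULC had 0.079. With the GC trend removed FABP6 (0.66, adjusted p = 0.0110) and ALB (0.24, adjusted p = 0.0358) passed and MAT1A had 0.40.

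For the difference of WIZ siRNA minus G9a siRNA, 0 of 8 members passed and 0 had an unadjusted p under 0.05, beside 19.8% of all features. The differences ran from -0.12 for ALB (95% interval -0.35 to 0.11, adjusted p = 0.449) to 0.18 for MAT1A (-0.94 to 1.29, adjusted p = 0.849). The labels do not say whether both siRNAs were set against the same control RNA. For the 4 comparison genes, the differences of either siRNA from UNC0638 did not pass either (adjusted p 0.431 to 0.946 in limma). The share of all features passing in those differences was not counted.

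Over the 9 replicates the chosen genes rose and fell together, which the choice of all 4 for their UNC0638 rise largely fixes. Pearson correlations among them were 0.906 (MAT1A and FGG) to 0.969 (HULC and FABP6), and -0.24 to 0.47 with FGA, ALB, TTR and SERPINA1. The features most like MAT1A were VWF (r = 0.982), HLA-DRB4 (0.978) and PDE2A (0.976), none of which matched its size, with UNC0638 means of 0.53, 0.83 and 0.20. Those most like HULC were AMBN (0.991), LYG2 (0.988) and MYLK (0.980). For FABP6 they were ADAMTSL1 and THBS4 (both 0.983) and HULC, and for FGG they were GRP (0.987), FMOD (0.976, on a probe shared with another locus) and ARAP3 (0.975). These are descriptions over 9 replicates.

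Genes around the chosen members were tested where they lay within 500 kb on the build of the files (37.1). The MAT1A probe lies at chromosome 10, 82031733 to 82031792, and of 7 neighbours 0 passed with UNC0638 (means -0.14 to 0.27). ANXA11, an annexin gene 114 kb away, fell with WIZ siRNA (-0.71, SE 0.12, adjusted p = 0.0339, lower in 2 of 2 replicates, and 0.777 and 0.519 without replicate 1 or 2) and with G9a siRNA (-0.77, adjusted p = 0.00309). With G9a siRNA NUTM2A fell (-0.65, adjusted p = 0.0102) and LOC100508964 rose (0.43, adjusted p = 0.0376). The FABP6 probe spans chromosome 5, 159659238 to 159661843. Of its 8 neighbours 1, the adrenergic receptor gene ADRA1B, rose with UNC0638 (0.23, SE 0.051, adjusted p = 0.0426 in limma). The adjusted p was 0.0722 to 0.0949 without any 1 UNC0638 replicate and 0.124 with the authors' log2 ratio. ADRA1B fell with G9a siRNA (-0.24, adjusted p = 0.0447). That fall missed the threshold with the authors' log2 ratio (0.0796), a normexp offset of 16 (0.0602) and the GC trend removed (0.169), among others. The splicing factor gene SLU7 rose with G9a siRNA (0.51, adjusted p = 0.0199).

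The FGG probe lies at chromosome 4, 155526065 to 155526124, the tested FGA probe at 155508789 to 155509983 and the FGB probe at 155492029 to 155492088. Of the 4 other genes tested around them, 0 passed with UNC0638 (-0.053 to 0.087) or WIZ siRNA, and the retinol acyltransferase gene LRAT rose with G9a siRNA (0.56, adjusted p = 0.00446). Around ALB (chromosome 4, 74285342 to 74286015), TTR (chromosome 18, 29178720 to 29178779) and SERPINA1 (chromosome 14, 94844791 to 94844850), 4, 4 and 12 neighbours were tested and 0 passed with UNC0638 or WIZ siRNA. With G9a siRNA CXCL8 near ALB (0.57), B4GALT6 near TTR (1.09) and PPP4R4 near SERPINA1 (0.56) rose, while DSG2 near TTR (-0.62) and OTUB2, GSC and IFI27L1 near SERPINA1 (-0.52, -0.54 and -0.34) fell. NUTM2A turned to 0.036 with the dye effect subtracted and IFI27L1 to 0.12 with the GC trend removed. In all, 13 of 39 neighbours passed with G9a siRNA, or 33.3% beside 33.2% of all features, which is no result about these loci. With UNC0638 and with WIZ siRNA 1 of 39 passed, or 2.56%, beside 3.65% and 0.616%.

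**Figure D4:**
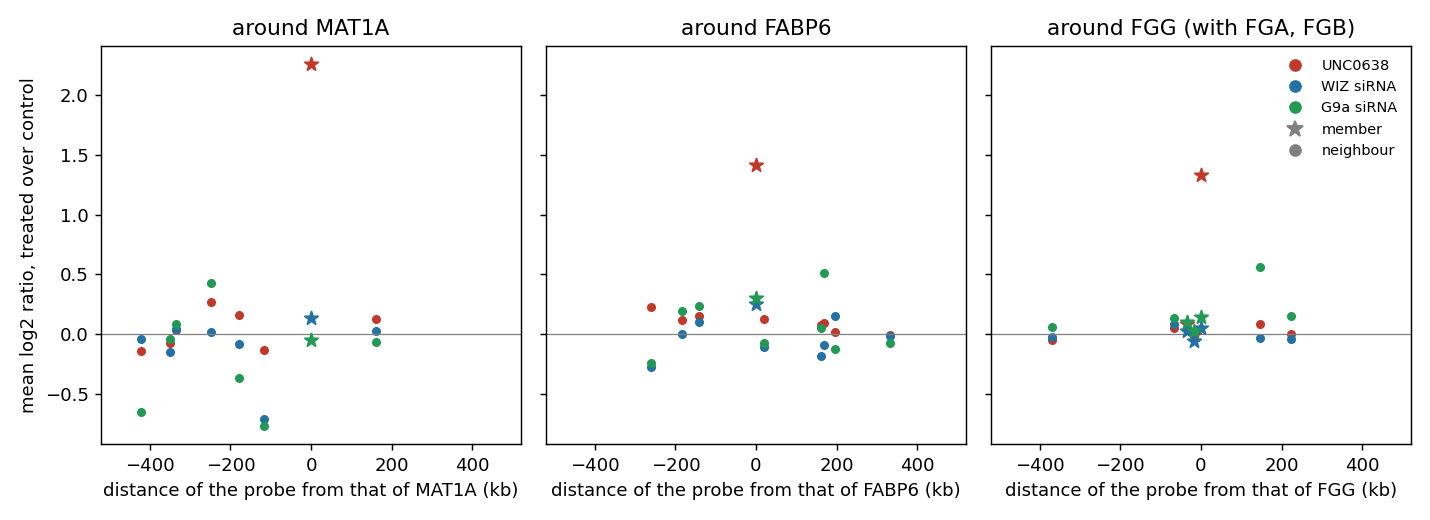
Mean log2 ratio (vertical axis) of MAT1A, FABP6 and the fibrinogen genes (stars) and of tested genes within 500 kb (dots) against the distance between probes in kb, in the 3 treatments. With UNC0638 the stars of MAT1A (2.26), FABP6 (1.41) and FGG (1.33) stand above their neighbours, which lie between -0.14 and 0.27. These genes were chosen for their UNC0638 rise, which largely fixes that contrast. The FGA and FGB stars lie near 0, from probes near or below background.

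Other genes of liver function were taken in 9 lists. Over all lists 186 entries were tested with UNC0638, and 6 rose and 2 fell, or 4.3% against 3.65% of all features. STAT3 stands in both the regulator and the interleukin 6 list and is counted in each. With WIZ siRNA 0 passed in limma (15 at an unadjusted p under 0.05), and with G9a siRNA 17 rose and 33 fell, or 26.9% against 33.2%.

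Of 29 plasma proteins 0 passed in limma (6 at an unadjusted p under 0.05), and A1BG had the largest ratio (-0.28, adjusted p = 0.178), and the list median was 0.022. Of 24 coagulation and complement genes 2 rose and 1 fell (4 at an unadjusted p under 0.05, median -0.0057), beside a median of -0.012 for all features. The complement factor I gene CFI, which encodes a protease that inactivates C3b, rose by 0.70 ± 0.11 (SD, n = 5, adjusted p = 0.000175), also rose with G9a siRNA (0.61, adjusted p = 0.00289) and lay on average 1.62-fold above control with UNC0638. F12, the gene of coagulation factor XII, fell by 0.52 (adjusted p = 0.0180) and with G9a siRNA by 0.90. F12 missed the threshold without UNC0638 replicate 4 (adjusted p = 0.0817), with the authors' log2 ratio (0.0607) and with median centring (0.0519). Of 14 apolipoprotein and lipid export genes 0 passed (3 at an unadjusted p under 0.05), with APOE at 0.20 (adjusted p = 0.149) and a list median of -0.010.

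The liver transcription regulators and the interleukin 6 family, known for driving acute-phase genes such as fibrinogen, had 0 of 28 and 0 of 16 genes past the test with UNC0638 (5 and 4 at an unadjusted p under 0.05; medians -0.041 and 0.014). CEBPD, an acute-phase regulator, lay at 0.074, -0.23, -4.34, -1.13 and -0.45, a mean of -1.21 (adjusted p = 0.235). Without replicate 3 the mean was -0.43, and 1 regulator gene fell. The leukaemia inhibitory factor receptor gene LIFR had 0.41 (adjusted p = 0.0693), and passed with median centring (adjusted p = 0.0414), with treated RNA in Cy5 alone (0.0142) and with the GC trend removed (0.0482).

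In the methionine cycle, to which MAT1A belongs, 0 of 24 other genes passed with UNC0638 (4 at an unadjusted p under 0.05, median -0.040), with the methionine synthase gene MTR at 0.52 (adjusted p = 0.152). Of 21 fatty acid binding protein and bile acid genes, 1 rose, the phospholipid transporter gene ABCB4 (0.51 ± 0.29 SD, n = 5, adjusted p = 0.0170), and the median was 0.063. ABCB4 missed the threshold without replicate 1, 2 or 5 (adjusted p 0.0543 to 0.0580) and with the dye effect subtracted (0.0708). Of 19 hepatocyte metabolic enzymes 3 rose and 0 fell (median 0.024). They were FBP1, of gluconeogenesis (0.81 ± 0.21 SD, n = 5, adjusted p = 0.000451), CYP3A5, a drug-metabolizing cytochrome (0.40, adjusted p = 0.00320), and TDO2, of tryptophan breakdown (0.32, adjusted p = 0.0196). Their control channel passed the background threshold on 6, 2 and 3 of 7 arrays. TDO2 missed the adjusted p threshold without replicate 1 (0.0594) or 2 (0.0541), with median centring (0.0660) and with the dye effect subtracted (0.0546). With the authors' log2 ratio CYP3A5 lay at 1.14 (adjusted p = 0.0716) and TDO2 at 1.32 (adjusted p = 0.153), larger and past no threshold. Of 11 long noncoding RNAs 1 fell, the imprinted H19 (-0.33, adjusted p = 0.0181, 0.0595 and 0.0589 without replicate 1 or 2, and 0.0526 with treated RNA in Cy5 alone). Without replicate 3, 1 of these RNAs rose and 1 fell, and the other lists except the regulators kept their counts.

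With WIZ siRNA the largest ratio of each list did not pass in the fit of all replicates. These were SERPINC1 (0.22), TFPI (0.48), APOA1 (-0.15), CEBPA (-0.69), AHCY (0.37), CYP27A1 (-0.52, adjusted p = 0.0658), FBP1 (-0.45), STAT3 (0.30) and CYTOR (0.26), with adjusted p from 0.0658 to 1.00 in limma. With treated RNA in Cy5 alone AHCY (-0.31) and STAT3 (-0.25) turned in sign, and CEBPA (-1.43, adjusted p = 0.00528), TFPI (0.90, adjusted p = 0.0259) and SERPINC1 (0.45, adjusted p = 0.0231) passed. On the 2 WIZ siRNA replicates alone each of these genes but APOA1 passed, in the fit that called 6842 features. List medians lay between -0.042 and 0.033.

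With G9a siRNA, where 33.2% of all features passed, plasma proteins had 1 rise (LEAP2, 0.35) and 2 falls (A1BG, -0.74, and ITIH4, -0.27), and coagulation and complement genes 2 rises and 4 falls, with C3 at -0.59 and C1R at -0.45. Apolipoprotein and lipid export genes had 0 rises and 4 falls, in APOA1 (-0.76), APOM (-0.67), APOE (-0.64) and LCAT (-0.31). Of the liver transcription regulators 4 rose and 7 fell, led by CEBPD (-4.36, adjusted p = 0.00514), NR2F2 (1.43), CEBPA (-1.15) and GATA6 (0.89). Of the methionine cycle genes 3 rose and 6 fell, with GAMT (-1.23), SRM (-1.23), PEMT (-1.14) and AHCY (-0.93) the largest. Of fatty acid binding protein and bile acid genes 2 rose and 3 fell, FABP5 at 0.82, FGFR4 at -0.64, HSD3B7 at -0.60 and SLC27A5 at -0.36, and of metabolic enzymes 1 fell, ASS1 (-0.29). Interleukin 6 family genes had 3 rises and 5 falls, with TYK2 at -1.01, JAK2 at 0.86, LIFR at 0.72 and STAT3 at -0.69, and noncoding RNAs 2 rises and 1 fall, with TUG1 at -1.01, NEAT1 at 0.65 and UCA1 at 0.25. Each gene named passed at an adjusted p under 0.05 in limma over all features (n = 2). LEAP2 lost its call with either G9a siRNA replicate left out and in 7 other alternatives, among them median centring (0.12), the dye effect subtracted (0.11) and the GC trend removed (0.079). The calls of other named genes were lost in limma with the authors' log2 ratio. These were ITIH4 (adjusted p = 0.106), ASS1 (0.0863), SLC27A5 (0.0657), C1R (0.0568), APOM (0.0540) and STAT3 (0.0530). UCA1 lost its call with treated RNA in Cy5 alone (adjusted p = 0.0772). APOA1 and UCA1 were below the background threshold in treated RNA on both arrays. With the GC trend removed ITIH4 (0.18), LCAT (0.052) and SLC27A5 (0.093) turned in sign, and with the dye effect subtracted ASS1 (0.13) and UCA1 (-0.070) did. Without replicate 2 the adjusted p of every feature was at least 0.106.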

How the data were processed

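Per the file headers, the deposited per-array files hold mean spot and median background intensity per channel, uncorrected, and a log2 ratio of the channels, background-subtracted and normalized by brightness by the authors. The series table holds the authors' log10 ratios, deposited as control over treated on 8 arrays and treated over control on 5, as comparison with the log2 ratios showed, and its centring stays unknown. Its column medians were 0, -0.0030, 0.0079 and 0.0082 (UNC0638 replicates 1 and 2, treated in Cy3, then in Cy5), -0.0041, -0.010, 0 and 0.0032 (WIZ siRNA, same order), -0.0036, -0.0061 and -0.0088 (UNC0638 replicates 3 to 5) and 0.0018 and -0.00027 (G9a siRNA).

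Background was corrected with normexp (limma 3.58.1, offset 50), followed by loess within arrays. Spots of 1 probe and arrays of a dye swap were averaged, giving 42405 probes and 9 biological replicates. Probes well above background on at least 50% of the arrays of 1 RNA group were kept (34619), and the brightest per gene was tested (28913 features). Of the 13 member probes 9 were kept and 8 genes tested. A mean per treatment was tested against 0 in 1 limma fit of all replicates, with Benjamini-Hochberg adjustment over all features, and features under 0.05 are called. The 95% intervals are those of this fit (6 residual and 3.33 prior degrees of freedom). Steps were tested on simulated data. Precision is limited by how few arrays there are.

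The members and lists were chosen with earlier results of these data known. From each list and comparison, up to 4 passing genes with the largest ratio are named, or else the 1 with the largest ratio, and neighbours within 500 kb where they passed; 1 such gene is not reported here. Symbols came from RefSeq accessions for 25519 probes. The labels call replicates biological, and p-values measure the spread between these samples.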

Additional observations from a re-analysis of the deposited data

Results flagged for a closer look

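Of 22 genes examined, 2 had a UNC0638 replicate apart from the rest. For genes taken without regard to their values, chance gives about 1 in 20. These 2 were named for their UNC0638 ratios, CEBPD as the largest of its list and ADRA1B for passing, so that rate does not hold for them. CEBPD, a transcription factor of the acute-phase response, lay at -4.34 (log2 ratio) in UNC0638 replicate 3, far from the nearest replicate at -1.13 and the highest at 0.074. The same replicate had correlations of 0.876 and 0.843 with G9a siRNA over all features, where CEBPD lay at -4.13 and -4.59. Its MAT1A, HULC, FABP6 and FGG ratios were 1.69, 1.28, 1.16 and 1.28, against -0.12 to 0.46 in G9a siRNA. ADRA1B, near FABP6, lay at 0.41 in replicate 2, with the others between 0.16 and 0.20. Of 16 differences between treatments tested for the members, 0 passed in limma. For WIZ siRNA minus G9a siRNA 19.8% of all features passed, and the shares for differences from UNC0638 were not counted.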

How the results depend on the processing

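Of the members with WIZ siRNA 0 passed in limma in the fit of all replicates (0 at an unadjusted p under 0.05), and 0 passed under every alternative but the fit on its own replicates (2). With G9a siRNA 2 passed with the authors' log2 ratio, 1 with the dye effect subtracted, 2 of 7 with the GC trend removed and 2 on its own replicates, and 0 otherwise. The comparison genes with UNC0638 and the members in WIZ siRNA minus G9a siRNA had 0 throughout, though the series table left 2 and 5 to test.

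Features called with WIZ siRNA (178) were 30 with the authors' log2 ratio, 99 of 17555 with the series table, 1832 with treated RNA in Cy5 alone, 6842 on own replicates and 20 to 347 with 1 replicate left out. With G9a siRNA (9601) they were 6393 of 13964 with the GC trend removed, where fewer were tested, and 0 to 11035 with 1 replicate left out. With UNC0638 (1056) they were 545, 599 of 17554, 2680 and 434 under the first 4 settings, 1703 in replicates 3 to 5 alone and 622 to 893 with 1 replicate left out. With the replicate block they were 76, 8457 and 734, and it changed no member's call. Differences between replicates 1 and 2 correlated at 0.0045, 0.11 and -0.031 between treatments, so these numbers are not taken as pairs. For G9a siRNA, ITIH4 (0.18), LCAT (0.052), SLC27A5 (0.093) and IFI27L1 (0.12) reversed with the GC trend removed, and ASS1 (0.13), UCA1 (-0.070) and NUTM2A (0.036) with the dye effect subtracted. For the other changes the cause was not tested. Signal over background limits FGB, AFP, FGA, ALB and TTR in all treatments. It limits HULC and FGG in control RNA with UNC0638 and in both RNAs with the siRNAs. It also limits MAT1A with G9a siRNA, and SERPINA1 with G9a siRNA and in UNC0638 replicates 3 to 5.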
